A study of Mus musculus with 12 samples.

Results

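The genes described here are 38 members of the integrated stress response and of the cytosolic machinery that loads amino acids onto tRNA, measured by RNA-seq in the mouse cochlea after noise. They were chosen by name and comprise 3 transcription factors (Atf4, Atf5 and Ddit3), 4 feedback and effector genes, 3 eIF2 alpha kinases, 1 eIF2 subunit, 6 enzymes of amino acid and one-carbon metabolism, 3 amino acid transporters and 18 cytosolic tRNA synthetases. All 38 were found among the 35496 genes of the count table, and all 38 passed the filter on low counts that left 19497 genes for testing. The mice were of the inbred strain FVB/NCrl, at postnatal day 60. Awake mice were kept for 30 minutes at 70, 94 or 105 dB SPL, a decibel measure of sound pressure, and cochlear RNA was taken at once with Trizol. The 70 dB group is the ambient control, and each level had 4 libraries, 12 in all. Whether each library holds RNA of 1 animal or of several is not stated in the labels. P-values therefore reflect only how far these samples differ among themselves, and part of that spread may be technical.

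In the integrated stress response, kinases that sense different stresses phosphorylate the alpha subunit of the initiation factor eIF2. This slows protein synthesis in general but favours translation of Atf4, whose protein then switches on genes for amino acid synthesis, amino acid import and tRNA charging, together with the stress genes Ddit3 and Trib3. Because much of this control is exerted on translation and on phosphorylation, RNA counts measure the transcripts of the pathway and not its activity.

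Atf4 binds the C/EBP-ATF response element, whose letters were searched as TGATGNAA on both strands. The search covered promoter sequences from RefSeq (build GRCm38.p6), which run from 250 bases before to 50 bases after each annotated start site. Of the 38 genes, 29 had at least 1 such sequence, with 33 sequences in all. The element was present in 8 of these 33 (24.2%), belonging to 8 genes, against 3.97% of all 32851 promoter sequences. The 8 are Trib3, Asns, Chac1 and the synthetase genes Aars, Gars, Iars, Tars and Yars. The matches of 7 of them are printed because the element sets these 8 genes apart from the remaining 21 with a sequence. Each is shown 5′ to 3′ along the gene, with the match in capitals, and matches on the other strand appear reversed and complemented.
Trib3, chr2:152344028-152344057, minus strand: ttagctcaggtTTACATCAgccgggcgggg
Asns, chr6:7693214-7693243, minus strand: tcccagccacaTGATGAAActtcccgcacg
Chac1, chr2:119351038-119351067, plus strand: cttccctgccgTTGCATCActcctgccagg
Gars, chr6:55037960-55037989, plus strand: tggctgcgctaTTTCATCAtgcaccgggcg
Iars, chr13:49682126-49682155, plus strand: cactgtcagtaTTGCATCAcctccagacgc
Tars, chr15:11399655-11399684, minus strand: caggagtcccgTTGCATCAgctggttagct
Yars, chr4:129189895-129189924, plus strand: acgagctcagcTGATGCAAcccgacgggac
Atf4 and Atf5, which had the largest log2 fold changes of the set at 94 dB as fitted, held no match. The 250 bases before their start sites are given for comparison, also 5′ to 3′ along the gene and with no letters marked.
Atf4, chr15:80254934-80255183, plus strand: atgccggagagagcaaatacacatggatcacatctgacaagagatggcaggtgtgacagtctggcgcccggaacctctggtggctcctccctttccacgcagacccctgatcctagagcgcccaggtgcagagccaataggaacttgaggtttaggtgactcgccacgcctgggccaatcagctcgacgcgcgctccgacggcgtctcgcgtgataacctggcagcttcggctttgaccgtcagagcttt
Atf5, chr7:44816659-44816908, minus strand: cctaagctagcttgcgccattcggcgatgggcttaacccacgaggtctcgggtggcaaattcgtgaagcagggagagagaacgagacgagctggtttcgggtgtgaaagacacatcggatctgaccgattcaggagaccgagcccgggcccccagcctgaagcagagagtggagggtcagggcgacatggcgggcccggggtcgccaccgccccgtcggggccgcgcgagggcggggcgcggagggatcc
One form of the element, TGATGCAA, is contained in the pattern above and was present in 0.895% of all promoter sequences. Among the matches printed above, those of Chac1, Iars, Tars and Yars have this form. The palindromic cAMP response element TGACGTCA, which does not contain the first pattern, was present in 1.79% of all and in 1 gene of the set, Ppp1r15a, the stress-induced phosphatase subunit. A match describes the letters and not a bound site.

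The libraries held 31141706 to 42317781 counts (70 dB), 32302796 to 38733490 counts (94 dB) and 32057388 to 40239711 counts (105 dB). At these depths 3 counts are 0.0703 to 0.0966 CPM (counts-per-million), and every member lay far above that level. Hair cell markers were present, at 0.0126 to 0.0146% of counts at 70 dB, and none of the 8 tested passed at 94 or 105 dB. In bulk tissue, fewer cells of a type and less RNA per cell cannot be told apart. The 13 mitochondrially encoded protein genes had shares of 5.17 ± 0.22%, 2.97 ± 0.48% and 4.57 ± 0.42% of all counts at 70, 94 and 105 dB (SD, n = 4). The difference of 94 from 70 dB had an exact permutation p of 0.0286, two-sided, the smallest the design allows, and 0.0857 after adjustment over 6 tests. Erythroid genes had 2.02 ± 0.18%, 2.607 ± 0.60% and 2.603 ± 0.34% at the 3 levels. Replicates 3 and 4 at 94 dB stood apart, with mitochondrial shares of 2.55% and 2.56% against 3.37% and 3.42% in replicates 1 and 2, and erythroid shares of 3.09% and 3.14% against 1.93% and 2.28%. In 26 of the 38 members these 2 libraries lay on 1 side of the other 2 at 94 dB, 7 above and 19 below. The share was 68.4% of the members, against 50.3% of all genes tested. Of 7 macrophage markers 4 rose and 1 fell at 94 dB, and their summed share ran from 0.05 to 0.0588% of counts at 94 dB against 0.0397 to 0.0458% at 70 dB. Of 8 neutrophil markers 4 rose. Of 7 stria vascularis markers 2 fell, and their summed share ran from 0.102 to 0.121% at 94 dB against 0.124 to 0.137% at 70 dB. Of 7 Schwann cell markers 2 fell and 1 rose. Among all genes tested 13.9% were called higher and 12.2% lower at 94 dB. The part of these shifts in the results below was not tested.

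At 94 dB, transcripts of the stress factors Atf4 and Atf5, the serine pathway enzymes Phgdh and Psph, the transporter chain Slc3a2 and the synthetases Mars and Vars rose against 70 dB. Those of the kinase Eif2ak1 and the synthetases Gars and Iars fell. A gene was called where its p from edgeR's quasi-likelihood test, adjusted by Benjamini-Hochberg over the 19497 genes, was under 0.05. This gave 7 members higher and 3 lower of 38, or 26.3%, while 26.1% of all genes tested were called in the same contrast, 13.9% higher and 12.2% lower. The members' share thus lay near that of all genes, and their median log2 fold change was 0.00 (0.0024), against -0.02 over all genes. Without 94 dB replicate 3, and likewise without replicate 4, 6 members passed, all higher; without both, 4 passed, namely Atf4, Atf5, Slc3a2 and Mars.

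At 105 dB, Atf4 was the single member called against 70 dB. It made up 2.63% of the 38, where 1.62% of all genes tested were called, 1.11% higher and 0.508% lower (217 and 99 genes; 189 and 135 with upper-quartile scaling). Of the 38 log2 fold changes 31 were positive, with a median of 0.07, against 0.00 (-0.0039) over all genes. In 7 members, Atf4, Eif2s1, Mthfd2, Slc3a2, Lars, Mars and Rars, every 105 dB library lay above every 70 dB library. The groups did not overlap, in 1 direction or the other, in 10.8% of all genes tested. That share was 25.4% for 94 against 70 dB and 21.3% for 105 against 94 dB. Set directly against 94 dB, 105 dB had 5 members higher (Eif2ak1, Eif2s1, Mthfd2, Gars and Rars) and 3 lower (Atf5, Phgdh and Psph). These 8 are 21.1% of the members, where 17.3% of all genes tested were called, 8.06% higher and 9.23% lower. Without 94 dB replicate 3 or 4, 2 and 3 members passed, and without 105 dB replicate 2 or 4, 4 each. Without 94 dB replicates 3 and 4 together, Atf5 alone passed. The 3 contrasts share libraries and are not independent of each other.

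**Figure D1:**
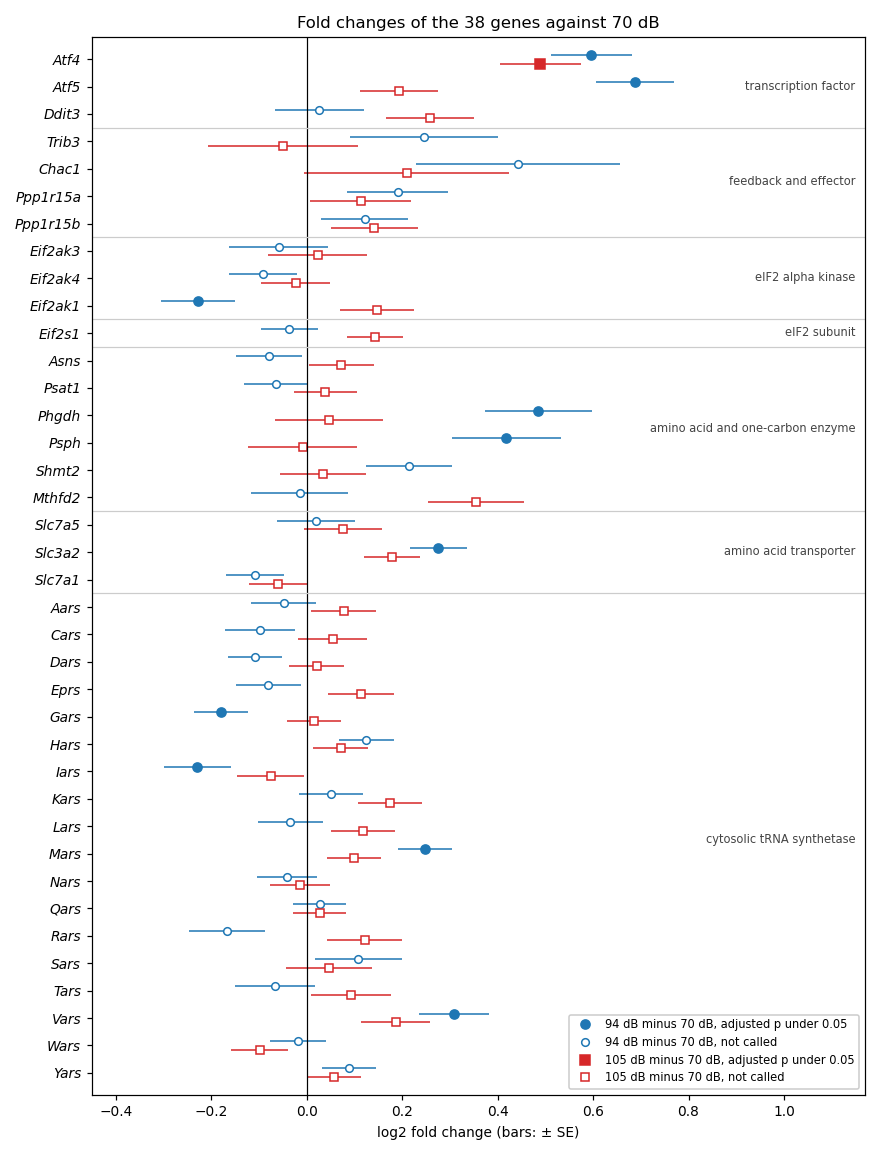
Log2 fold changes of the 38 genes, grouped by role, at 94 dB (circles) and 105 dB (squares) against 70 dB, with bars of 1 SE; filled symbols passed an adjusted p of 0.05 and open ones did not. Filled circles stand on both sides of 0 among the synthetases, whereas Atf4 carries the single filled square.

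Atf4 (ENSMUSG00000042406; mm10 chromosome 15, 80255184 to 80257541), the central transcription factor of the response, read 184, 168, 172 and 148 CPM in the 70 dB libraries, 245, 257, 252 and 263 CPM at 94 dB, and 242, 240.4, 265 and 198 CPM at 105 dB. All libraries of both noise levels lay above all 70 dB libraries, and the 2 noise levels overlapped. The mean was 254 ± 7.85 CPM at 94 dB against 168 ± 14.8 at 70 dB (SD, n = 4 each). The log2 fold change was 0.60 at 94 dB (SE 0.08, 1.51-fold, adjusted p = 2.15e-04) and 0.49 at 105 dB (SE 0.08, 1.40-fold, adjusted p = 0.00489). The direct difference of 105 from 94 dB was -0.11 on the log2 scale, with a 95% interval of -0.29 to 0.07 (adjusted p = 0.421). Both calls held under all 22 alternatives, with adjusted p up to 0.00456 at 94 dB and 0.0242 at 105 dB.

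Atf5 (ENSMUSG00000038539; mm10 chromosome 7, 44812256 to 44816658), a factor related to Atf4 that is also favoured in translation under stress, read 58.1, 53.0, 52.9 and 55.3 CPM at 70 dB, 85.3, 81.6, 96.5 and 90.01 CPM at 94 dB, and 62.5, 56.4, 73.4 and 58.5 CPM at 105 dB. All 94 dB libraries exceeded those of both other levels, while 105 and 70 dB overlapped. Its log2 fold change was 0.69 at 94 dB (SE 0.08, adjusted p = 4.65e-05), and 0.19 at 105 dB, which did not pass (adjusted p = 0.216). The difference itself passed, at -0.49 for 105 against 94 dB (SE 0.08, adjusted p = 0.00181). With a smooth trend on transcript GC content and exon length removed from each library, the 94 dB value was 0.28 and still passed (adjusted p = 0.00413), and the difference of 105 from 94 dB was -0.17 and did not (adjusted p = 0.0710). Atf5 shares 82 exon bases with Nup62 and Il4i1 on the other strand, and its counts are uncertain to that extent, since the use of strand in counting is not given in the sources used here.

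Ddit3 (ENSMUSG00000025408; mm10 chromosome 10, 127290774 to 127296288), which encodes the pro-apoptotic factor CHOP, read 27, 29.9, 32.5 and 27.2 CPM at 70 dB, 34.8, 29.2, 29.2 and 25.7 CPM at 94 dB, and 33.4, 35.5, 38.15 and 32.5 CPM at 105 dB. The groups overlapped at both noise levels. The log2 fold change was 0.03 at 94 dB (95% interval -0.17 to 0.22, adjusted p = 0.858) and 0.26 at 105 dB (0.06 to 0.46, adjusted p = 0.164), and neither passed. Without 94 dB replicate 1 the direct contrast of 105 with 94 dB passed, at 0.31 and an adjusted p of 0.0224, against 0.23 and 0.0971 with all libraries. Ddit3 and Mars lie on opposite strands and share 68 exon bases.

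**Figure D2:**
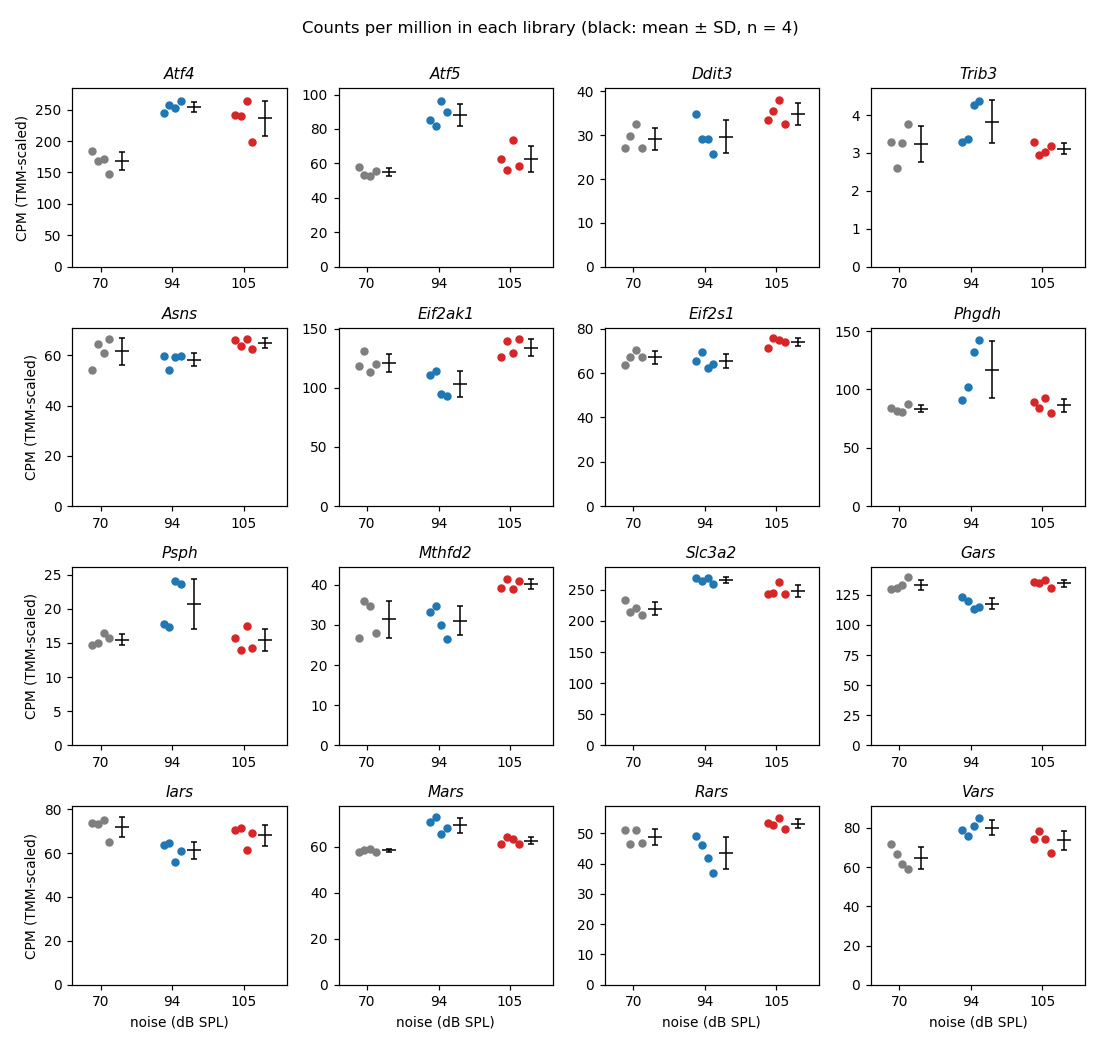
CPM in each of the 4 libraries at 70, 94 and 105 dB for the 13 members called in any contrast and for Ddit3, Trib3 and Asns, with the mean and SD in black. All 8 noise libraries lie above the 70 dB libraries for Atf4. For Atf5 all 94 dB libraries do, while the 105 dB libraries overlap with those at 70 dB. At 94 dB the points of Phgdh and Psph form 2 pairs.

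None of the 4 feedback and effector genes passed in any of the 3 contrasts. Trib3 (ENSMUSG00000032715; mm10 chromosome 2, 152337422 to 152344032), a pseudokinase induced by Atf4 and Ddit3 that dampens their action, was the lowest member, with 3.30, 2.59, 3.26 and 3.765 CPM at 70 dB, 3.30, 3.37, 4.26 and 4.37 CPM at 94 dB, and 3.29, 2.96, 3.03 and 3.18 CPM at 105 dB. Its log2 fold change was 0.25 at 94 dB (95% interval -0.08 to 0.57, adjusted p = 0.262) and -0.05 at 105 dB (-0.38 to 0.28, adjusted p = 0.893). Chac1, which degrades glutathione, had 0.44 at 94 dB with a wide interval of -0.01 to 0.90 (adjusted p = 0.141), and 94 dB replicate 4 alone read 13.5 CPM where the others read 6.59 to 7.94. Ppp1r15a and Ppp1r15b, which bring a phosphatase to eIF2 alpha and so end the response, had 0.19 and 0.12 at 94 dB (adjusted p = 0.197 and 0.351).

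Of the 3 kinases, Eif2ak1 (ENSMUSG00000029613; mm10 chromosome 5, 143817788 to 143904251), the heme-regulated kinase HRI, read 119, 131, 114 and 120.3 CPM at 70 dB, 111, 114, 94.9 and 93.5 CPM at 94 dB, and 126, 139, 129 and 141 CPM at 105 dB. It fell by 0.23 on the log2 scale at 94 dB (SE 0.08, adjusted p = 0.0387), although the ranges overlapped slightly, with 1 library at each level at 114 CPM. It was higher at 105 than at 94 dB in all libraries, by 0.38 (SE 0.08, adjusted p = 0.00509), and did not pass against 70 dB (0.15, adjusted p = 0.313). Single libraries decided the call at 94 dB. It ended, with the adjusted p in parentheses, on leaving out replicate 1 (0.0587), 2 (0.114) or 4 (0.0768) at 70 dB, replicate 3 (0.121) or 4 (0.122) at 94 dB, or replicate 1 (0.0527) or 4 (0.0540) at 105 dB. It also ended with the GC and length trend removed (-0.19, 0.0775). The call against 94 dB was lost without 94 dB replicates 3 and 4 together (0.114). Eif2ak1 shares 487 exon bases with Aimp2 on the other strand. Eif2ak3 (PERK, the sensor of the endoplasmic reticulum) and Eif2ak4 (GCN2, the sensor of uncharged tRNA) passed in no contrast, with log2 fold changes of -0.06 and -0.09 at 94 dB and 0.02 and -0.02 at 105 dB.

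Eif2s1 (ENSMUSG00000021116; mm10 chromosome 12, 78861819 to 78887010), the alpha subunit that these kinases phosphorylate, read 63.5, 67.4, 70.7 and 67.3 CPM at 70 dB, 65.7, 69.8, 62.5 and 64.2 CPM at 94 dB, and 71.6, 75.7, 75.2 and 74.3 CPM at 105 dB. All 105 dB libraries lay above all others. Against 94 dB the log2 difference was 0.18 (SE 0.06, adjusted p = 0.0472), and against 70 dB it was 0.14 and did not pass (adjusted p = 0.210). The first of these sat at the threshold and held when 70 dB replicate 1 or 94 dB replicate 2 was left out. Leaving out any of the other 10 libraries ended it, at adjusted p of 0.0536 to 0.141. With the GC and length trend removed, Eif2s1 had 0.03 for 105 against 94 dB (adjusted p = 0.768), and at 94 dB it passed as higher than at 70 dB (0.16, adjusted p = 0.0459), where it had -0.04 as fitted.

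Among the enzymes, the first and the last step of serine synthesis from glycolysis rose at 94 dB, and the middle step did not pass. Phgdh (ENSMUSG00000053398; mm10 chromosome 3, 98313170 to 98339990), the first and committed enzyme, read 84.5, 81.3, 80.9 and 87.6 CPM at 70 dB, 91.0, 102, 132 and 142.5 CPM at 94 dB, and 89.3, 84.1, 92.2 and 79.8 CPM at 105 dB. Psph (ENSMUSG00000029446; mm10 chromosome 5, 129765558 to 129787449), the last, read 14.7, 15.0, 16.5 and 15.8 CPM at 70 dB, 17.8, 17.3, 24.0 and 23.6 CPM at 94 dB, and 15.7, 14.0, 17.5 and 14.3 CPM at 105 dB. For both, every 94 dB library exceeded every 70 dB library, and replicates 3 and 4 were the highest.

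Phgdh rose at 94 dB by 0.49 on the log2 scale (SE 0.11, adjusted p = 0.00618) and Psph by 0.42 (SE 0.11, adjusted p = 0.0137). At 105 dB they differed from 70 dB by 0.05 and -0.01, and from 94 dB by -0.44 and -0.43 (adjusted p = 0.0161 and 0.0182). Psph lost its call against 70 dB without 94 dB replicate 3 (0.0551) or 4 (0.0534), and without both the values were 0.21 for Phgdh (adjusted p = 0.107) and 0.18 for Psph (0.306). These are the libraries with the low mitochondrial and high erythroid shares, whose part in the result was not tested. With the GC and length trend removed, Phgdh no longer passed at 94 dB (0.24, adjusted p = 0.0566) or for 105 against 94 dB (-0.24, 0.0776), while Psph kept 0.44 at 94 dB (0.0191). In the contrast of 105 with 94 dB, Phgdh no longer passed on leaving out replicate 3 at 94 dB (0.0599) or replicate 4 at 105 dB (0.0560). Psph no longer passed on leaving out replicate 3 (0.0758) or 4 (0.0691) at 94 dB, or replicate 2 (0.0599) or 4 (0.0619) at 105 dB. Psph shares 452 exon bases with Cct6a on the other strand. Psat1, the middle enzyme, had a log2 fold change of -0.07 at 94 dB (95% interval -0.21 to 0.08, adjusted p = 0.506) and 0.04 at 105 dB.

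Asns (ENSMUSG00000029752; mm10 chromosome 6, 7675169 to 7693254), asparagine synthetase and a widely used readout of Atf4, read 54.3, 64.7, 60.9 and 66.5 CPM at 70 dB, 59.6, 54.3, 59.5 and 59.8 CPM at 94 dB, and 66.2, 63.8, 66.7 and 62.5 CPM at 105 dB. The groups overlapped against 70 dB. The log2 fold change was -0.08 at 94 dB (95% interval -0.22 to 0.07, adjusted p = 0.430) and 0.07 at 105 dB (-0.07 to 0.22, adjusted p = 0.593). The intervals end below the log2 fold changes of Atf4 at the same levels, 0.60 at 94 dB and 0.49 at 105 dB. How closely Asns transcripts follow those of Atf4 was not tested.

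Of the mitochondrial one-carbon enzymes, Mthfd2 (ENSMUSG00000005667; mm10 chromosome 6, 83305691 to 83325908) read 26.8, 36.0, 34.7 and 28.0 CPM at 70 dB, 33.2, 34.7, 30.0 and 26.4 CPM at 94 dB, and 39.3, 41.5, 39.0 and 40.9 CPM at 105 dB. Every 105 dB library lay above all others. It was higher at 105 than at 94 dB by 0.37 on the log2 scale (SE 0.10, adjusted p = 0.0193), and its 0.36 against 70 dB missed the threshold (adjusted p = 0.0843). That value passed under 5 of the 22 alternatives. It did so on leaving out replicate 2 at 70 dB (0.0430), with DESeq2 (0.0341) and without the low-count filter. It also passed with the replicate number as a block, with and without the GC and length trend removed. The call against 94 dB ended on leaving out replicate 3 (0.0616) or 4 (0.0691) at 94 dB, or replicate 2 (0.0549) or 4 (0.0524) at 105 dB. Shmt2, which feeds the same pathway from serine, had 0.21 at 94 dB and did not pass (adjusted p = 0.0903), but did without 70 dB replicate 2 (0.0242) or 94 dB replicate 1 (0.0284).

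Slc3a2 (ENSMUSG00000010095; mm10 chromosome 19, 8706882 to 8723369), the heavy chain that carries several amino acid exchangers to the cell surface, read 233, 214, 221 and 209 CPM at 70 dB, 269, 264, 268 and 260 CPM at 94 dB, and 244, 245, 262 and 243 CPM at 105 dB. All libraries of both noise levels exceeded all 70 dB libraries. It rose at 94 dB by 0.28 on the log2 scale (SE 0.06, adjusted p = 0.00341), a call held under all 22 alternatives (0.18, adjusted p = 0.0292, with the GC and length trend removed), and its 0.18 at 105 dB did not pass (adjusted p = 0.135; 0.0213 with DESeq2). Its partner Slc7a5, the light chain for large neutral amino acids, had 0.02 at 94 dB (95% interval -0.15 to 0.19). Slc7a1, a carrier of cationic amino acids, read 43.5, 43.4, 41.9 and 44.6 CPM at 94 dB against 46.6, 46.9, 45.9 and 47.5 at 70 dB. These ranges did not overlap, which held for 25.4% of all genes tested, and its log2 fold change of -0.11 did not pass (adjusted p = 0.205).

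The 18 cytosolic tRNA synthetases, each of which joins 1 or, for Eprs, 2 amino acids to their tRNAs, had values on both sides of 0 at 94 dB. Of them 2 rose, 2 fell and 14 did not pass, so that 22.2% were called, near the 26.1% of all genes tested, with log2 fold changes of -0.23 to 0.31, a median of -0.04 and 7 positive values. At 105 dB none passed against 70 dB, where 1.62% of all genes tested did, with 15 of 18 values positive and a median of 0.06. Against 94 dB, 2 were higher at 105 dB and none lower, and the median was 0.13. These 2 are 11.1% of the synthetases, where 17.3% of all genes tested were called, 8.06% higher and 9.23% lower. Summed over the 18 genes, the libraries held 1631, 1661, 1631 and 1662 CPM at 70 dB, 1685, 1662, 1571 and 1641 CPM at 94 dB, and 1695, 1735, 1748 and 1659 CPM at 105 dB. The 3 groups overlapped in this sum, which averaged 1646 ± 17.8, 1640 ± 49.1 and 1710 ± 40.4 CPM (SD, n = 4 each).

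Mars (ENSMUSG00000040354; mm10 chromosome 10, 127296221 to 127311786), the methionine enzyme, read 57.7, 58.7, 59.1 and 57.7 CPM at 70 dB, 70.7, 72.9, 65.4 and 68.0 CPM at 94 dB, and 61.2, 64.1, 63.3 and 61.0 CPM at 105 dB. The 3 levels did not overlap, with 94 dB highest. It rose at 94 dB by 0.25 on the log2 scale (SE 0.06, adjusted p = 0.00481), and its 0.10 at 105 dB did not pass (adjusted p = 0.362). With the GC and length trend removed the call at 94 dB ended (0.15, adjusted p = 0.0664). Vars (ENSMUSG00000007029; mm10 chromosome 17, 35000987 to 35016322), the valine enzyme, read 71.75, 66.7, 61.4 and 58.8 CPM at 70 dB, 78.7, 75.9, 80.8 and 85.2 CPM at 94 dB, and 74.6, 78.6, 74.1 and 67.3 CPM at 105 dB. It rose at 94 dB by 0.31 (SE 0.07, adjusted p = 0.00595), with no overlap, and had 0.19 at 105 dB (adjusted p = 0.188). Without 94 dB replicates 3 and 4 together Vars did not pass (0.26, adjusted p = 0.0783), and with that GC and length trend removed its value was 0.05 (adjusted p = 0.618).

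Gars (ENSMUSG00000029777; mm10 chromosome 6, 55038007 to 55079500), the glycine enzyme, read 130.0, 131, 133 and 139.6 CPM at 70 dB, 123, 119.6, 113 and 115 CPM at 94 dB, and 136, 135, 138 and 131 CPM at 105 dB. At 94 dB it lay below every 70 dB library, fell by 0.18 on the log2 scale (SE 0.06, adjusted p = 0.0288), and was higher at 105 than at 94 dB by 0.20 (SE 0.06, adjusted p = 0.0272). The first call ended on leaving out replicate 3 (0.0668) or 4 (0.102) at 70 dB, or replicate 2 (0.0541), 3 (0.0858) or 4 (0.0726) at 94 dB. The second ended on leaving out replicate 3 (0.0891) or 4 (0.0711) at 94 dB, or replicate 1 (0.0628), 2 (0.0640) or 3 (0.0501) at 105 dB.

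Iars (ENSMUSG00000037851; mm10 chromosome 13, 49682100 to 49734267), the isoleucine enzyme, read 73.9, 73.3, 74.9 and 64.9 CPM at 70 dB, 63.5, 64.5, 56.1 and 61.0 CPM at 94 dB, and 70.7, 71.3, 61.2 and 69.1 CPM at 105 dB. It fell by 0.23 on the log2 scale at 94 dB (SE 0.07, adjusted p = 0.0263), and no 94 dB library reached the lowest at 70 dB. This call ended on leaving out replicate 1 (0.0599), 2 (0.0591) or 3 (0.0798) at 70 dB, or replicate 3 (0.0900) or 4 (0.0579) at 94 dB, and with that GC and length trend removed (-0.17, 0.0782). Rars (ENSMUSG00000018848; mm10 chromosome 11, 35808381 to 35834506), the arginine enzyme, read 51.2, 46.4, 51.2 and 46.7 CPM at 70 dB, 49.2, 46.3, 41.8 and 37.0 CPM at 94 dB, and 53.3, 52.7, 55.2 and 51.6 CPM at 105 dB. Its 105 dB libraries lay above all others. It was higher at 105 than at 94 dB by 0.29 (SE 0.08, adjusted p = 0.0207), without a call against 70 dB at either level (-0.17 at 94 dB, adjusted p = 0.133, or 0.0455 without 94 dB replicate 1). Its call against 94 dB was lost without 94 dB replicates 3 (0.0670) or 4 (0.0686), and with that GC and length trend removed (0.21, 0.0814).

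The remaining 13 synthetases passed in no contrast. Their log2 fold changes at 94 dB ran from -0.11 for Dars, the aspartate enzyme, to 0.13 for Hars, the histidine enzyme, and at 105 dB from -0.10 for Wars, the tryptophan enzyme, to 0.18 for Kars, the lysine enzyme. Yars, the tyrosine enzyme, had all 94 dB libraries above all 70 dB libraries, at 80.8, 81.0, 79.98 and 85.4 CPM against 75.8, 79.1, 73.7 and 79.1, and did not pass (log2 fold change 0.09, adjusted p = 0.272). Of the 8 enzymes that sit in the multisynthetase complex (Dars, Eprs, Iars, Kars, Lars, Mars, Qars and Rars), 1 rose and 1 fell at 94 dB, as did 1 and 1 of the 10 free ones, with medians of -0.06 and -0.03; of all genes tested 13.9% were called higher and 12.2% lower. At 105 dB the medians against 70 dB were 0.11 and 0.06, with no call in either class, where 1.62% of all genes tested were called.

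None of the 8 genes with a C/EBP-ATF element in the promoter sequence rose at 94 dB, and 2 of them, Gars and Iars, fell. Of all genes tested 13.9% were called higher and 12.2% lower, and nothing particular to the element is read from counts in 8 genes. Of the 21 whose sequence held no match, 6 rose and 1 fell, and of the 9 for which RefSeq gave no sequence, 1 rose. The median log2 fold changes of these 3 groups were -0.06, 0.03 and -0.02 at 94 dB and 0.07, 0.10 and 0.08 at 105 dB. These are descriptions of small groups, and the windows searched do not cover elements farther from the start site or in introns.

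**Figure D3:**
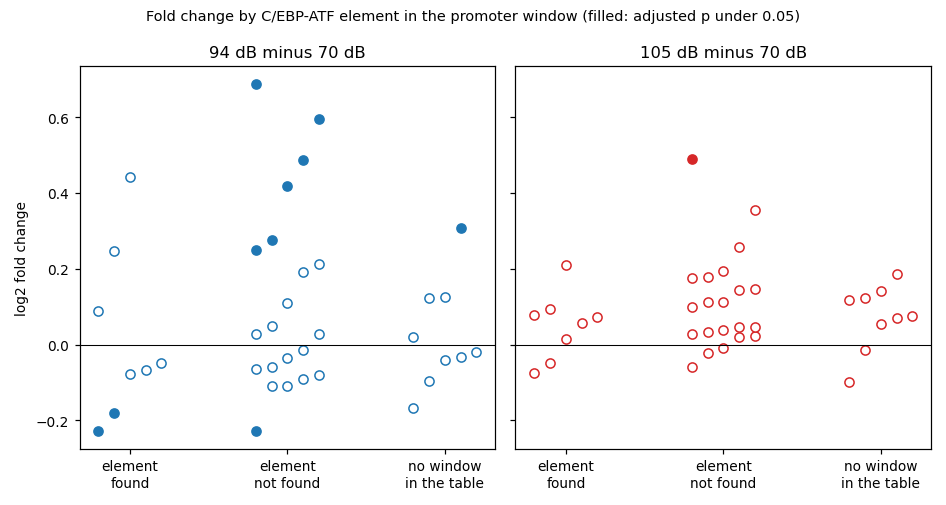
Log2 fold change of each of the 38 genes against 70 dB at 94 dB (left) and 105 dB (right), split by whether the promoter sequence holds the C/EBP-ATF element; filled points passed an adjusted p of 0.05. The filled points above 0 at 94 dB lie outside the group with the element.

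Fold changes at 94 dB moved with the base composition of the transcripts. Across 19484 genes, which are not independent replicates, Spearman's rho of the 94 dB log2 fold change was 0.46 with transcript GC content and -0.26 with exon length, and at 105 dB it was 0.09 and -0.21. Members called higher at 94 dB included several GC-rich transcripts. Atf5 stood at the 98th percentile of all genes in GC content, and Vars (97.1), Phgdh (88.1) and Atf4 (81) also stood high. Slc3a2 (70.5), Mars (70.4) and Psph (49.8), likewise called higher, stood lower. GC-rich members without a call at 94 dB were Trib3 (91.5), Chac1 (89), Shmt2 (88.7), Aars (84.8), Slc7a5 (84.4) and Ppp1r15a (82). With the trend on both removed, 6 members passed at 94 dB, 5 higher (Atf4, Atf5, Eif2s1, Psph and Slc3a2) and 1 lower (Gars). Atf4 kept a fold change of 0.40 on the log2 scale (adjusted p = 0.00338) and Gars -0.21 (0.0114). Phgdh, Mars, Vars, Iars and Eif2ak1 no longer passed. At 105 dB Atf4 was again the single member called. Between 105 and 94 dB the calls of Atf5, Phgdh, Rars and Eif2s1 ended, while Aars, the alanine tRNA synthetase, passed (0.25, 0.0327). The counts of Aars are uncertain, since its exons share 1326 bases with Exosc6 on the same strand.

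**Figure D4:**
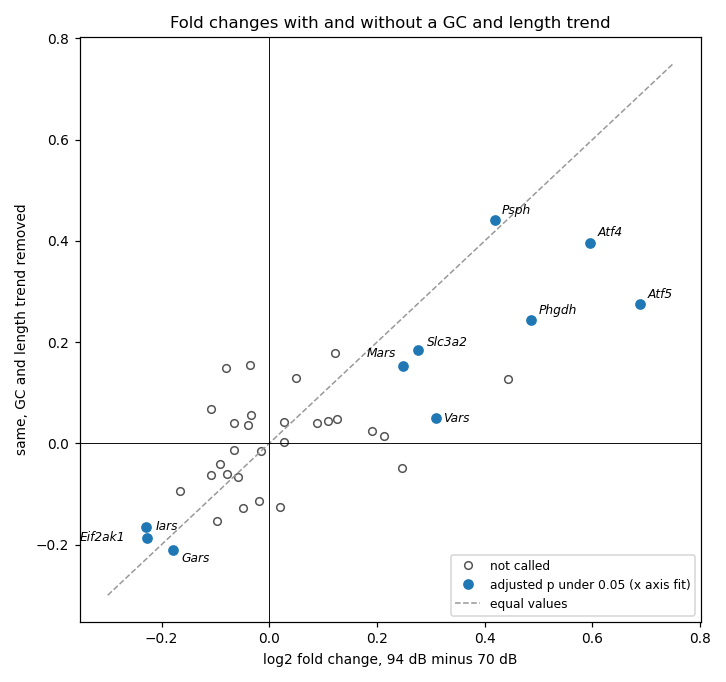
Log2 fold change at 94 dB against 70 dB for the 38 genes, as fitted (horizontal) and after removal of a trend on transcript GC content and exon length (vertical); filled points passed an adjusted p of 0.05 as fitted, and the dashed line marks equal values. Atf5, Atf4, Phgdh and Vars lie below the line, whereas Psph stays on it.

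Levels differed widely between the members. Divided by exon length, Atf4 was the most abundant transcript of the set, with means of 71.3, 108 and 100.2 CPM per kb at 70, 94 and 105 dB, followed by Slc3a2 with 62.1, 75.2 and 70.3. Trib3 was the lowest, with 1.52, 1.80 and 1.46 CPM per kb, and Eif2ak4 was next above it with 3.13, 2.94 and 3.08. Among the synthetases, Nars and Gars were highest at 70 dB, with 43.4 and 42.7 CPM per kb, and Eprs was lowest with 5.47. The length used was that of all annotated exons of a gene merged, which can exceed that of any single transcript. It was 18102 bases for Eprs, the longest of the set, and the order of the genes per length depends on it. The annotated exons of Aars include 1326 bases shared with Exosc6, a gene on the same strand that is absent from the count table. The counts of Aars and its level per length are therefore uncertain. The median coefficient of variation of the members was 4.95%, 6.98% and 5.72% at 70, 94 and 105 dB, against 10.6%, 11.2% and 9.88% over all genes tested, which include lower counts.

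**Figure D5:**
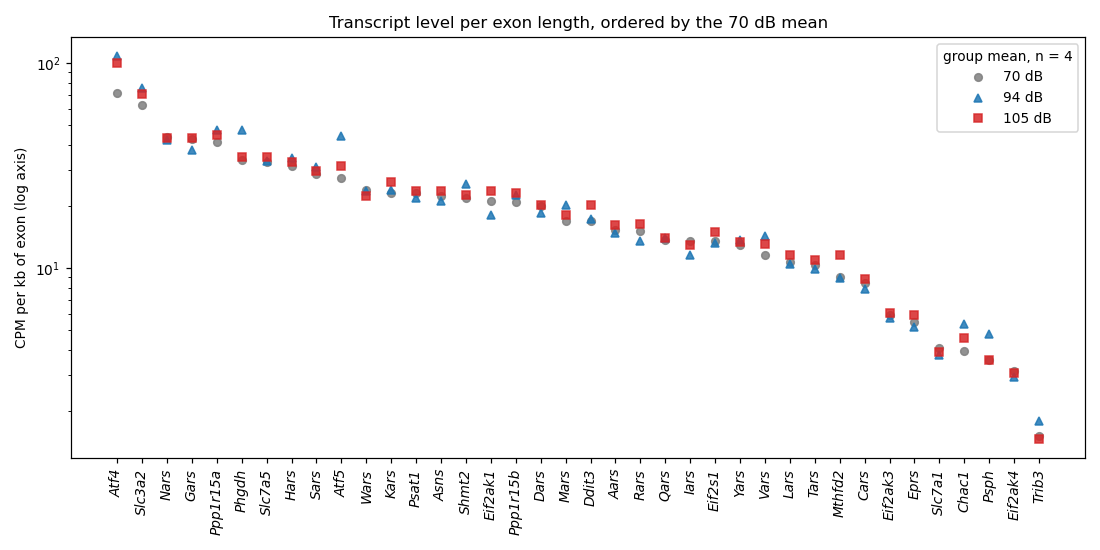
Mean CPM per kb of exon (log axis) of the 38 genes at 70, 94 and 105 dB, n = 4 each, ordered by the 70 dB mean. Atf4 stands at the left end at 71.3 CPM per kb and Trib3 at the right end at 1.52, and the 3 symbols lie close together for most synthetases.

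Other genes of the pathway came from 4 lists chosen with earlier results in view. Of 16 further genes of the eIF2 machinery, 4 rose and 1 fell at 94 dB (31.2%, against 26.1% of all genes) and none passed at 105 dB (1.62% of all genes). Gcn1l1, the ribosome-bound activator of GCN2, rose by 0.37 (adjusted p = 0.00156), and Eif2b2, a subunit of the exchange factor that reloads eIF2, by 0.33 (adjusted p = 0.00422). Eif2a, a separate initiation factor, fell by 0.33 (adjusted p = 0.00259). Of 30 other genes reported as Atf4 targets, 8 rose and 1 fell at 94 dB (30.0%, against 26.1% of all genes), and 5 rose and none fell at 105 dB (16.7%, against 1.62%). Because the lists were chosen with earlier results known, their shares are no test against the share of all genes. Ddit4, an mTOR inhibitor, had 3.45 at 94 dB and 2.66 at 105 dB, and Cebpb, a partner of Atf4, had 2.61 and 2.07. Jdp2, a repressor of the same protein class, had 0.69 at 94 dB and did not pass at 105 dB (0.28, adjusted p = 0.134). The other 3 called at 105 dB were Atf3, Gdf15 and Stc2, named here after their values were seen, at 2.11, 1.11 and 0.66. Several of these genes also answer to other stimuli, and Cebpb shares 312 exon bases with Tmem189 on the other strand. Jdp2 shares 165 with Gm47863 and Eif2a 72 with Serp1, also on the other strand.

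Of 6 further cytosolic synthetase and scaffold genes, 1 rose and 1 fell at 94 dB (33.3%, against 26.1% of all genes). Farsa rose by 0.29 (adjusted p = 0.00740) and Farsb fell with -0.25 (adjusted p = 0.00789) at 94 dB, although they encode the 2 chains of 1 enzyme for phenylalanine. Farsb shares 248 exon bases with Sgpp2 on the other strand. The scaffold gene Aimp1 had 0.05 at 94 dB and 0.29 at 105 dB and passed at neither (adjusted p = 0.732 and 0.125). It shares 163 exon bases with Tbck on the other strand. Of 17 mitochondrial synthetases, 3 rose and 1 fell at 94 dB (23.5%, near the 26.1% of all genes) and none passed at 105 dB (1.62% of all genes). Among them Fars2 and Aars2 rose by 0.28 and 0.31 (adjusted p = 0.0196 and 0.0241), and Iars2 fell with -0.27 (adjusted p = 0.0200). Iars2 shares 2034 exon bases with Rab3gap2 on the other strand. Fars2 shares 501 with Nrn1 and 115 with Lyrm4, also on the other strand.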

How the data were processed

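RNA-seq read counts per gene were analysed from 12 cochlear libraries, 4 at each noise level. The deposited values are whole-number counts, not normalized. Per the labels' protocols, an Illumina TruSeq RNA kit was used on 1 µg of total RNA. The submitters' processing notes name CASAVA, STAR, featureCounts 1.5.0-p3 and the mm10 build. For settings, annotation, strandedness and multi-mapped reads, the sources used here give nothing. Sample titles gave the groups and replicate numbers.

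Counts were tested with edgeR 4.0.16 in R 4.3.3. Genes passing filterByExpr at a minimum count of 10 were kept (19497 genes, 99.93% of counts), libraries were scaled with TMM factors, and glmQLFit (robust) modelled the 3 group means over all 12 libraries, with 9 residual degrees of freedom and a common biological variation of 0.133. Contrasts came from glmQLFTest, with Benjamini-Hochberg adjustment over the 19497 genes and a threshold of 0.05. SE values and 95% intervals were derived from the F statistic. CPM values are TMM-scaled; floors of 3 counts cover counting error only. Symbols, positions, exon lengths, GC content and exon overlaps are from GENCODE M21 (GRCm38, the assembly also called mm10), in which 35474 of the 35496 genes had a symbol. Genes without one held 0.00378% of counts.

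The members and lists were chosen with earlier results of these data known. Values in every library are given for each member called in any contrast and for Atf4, Ddit3, Trib3 and Asns; from each list of other genes, the 3 with the smallest p at 94 or 105 dB are named. The alternatives were scaling by upper-quartile or DESeq2's size factors, no low-count filter, a minimum of 1 CPM in 4 libraries, a fit to only the 8 libraries of a contrast, the replicate number as a block, removal of a GC and length trend, both of these together, DESeq2 1.42.0, each library left out, and 94 dB replicates 3 and 4 left out together. The procedure was tested on simulated data. No 2 libraries were duplicates. One promoter sequence is not reported here.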

Additional observations from a re-analysis of the deposited data

Results flagged for a closer look

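Within groups of 4 libraries, 1 library lay far from the other 3, relative to the range of the group, in 7 of the 114 member-by-level groups examined, and chance gives about 1 in 20. In 4 of the 7 the 105 dB group had a low library. Psat1, a serine synthesis enzyme, read 96.8 CPM in replicate 4 and 102 to 103 CPM in the others. Kars, the lysine tRNA synthetase, read 103 CPM in replicate 4 against 120 to 123 CPM. Slc7a5, an amino acid transporter, read 114 CPM in replicate 3 where the others all read 134. Qars, the glutamine tRNA synthetase, read 88.9 CPM in replicate 1 against 92.4 to 93.2 CPM. Slc3a2, the partner of Slc7a5, had its one high library in the same 105 dB replicate 3, at 262 CPM against 243 to 245 CPM. Asns was low in 94 dB replicate 2, at 54.3 CPM against 59.5 to 59.8 CPM, and Iars in 70 dB replicate 4, at 64.9 CPM against 73.3 to 74.9 CPM.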

How the results depend on the processing

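Under the 22 alternatives, the calls of Atf4 at 94 and 105 dB and of Atf5 and Slc3a2 at 94 dB were kept; upper-quartile and DESeq2's size factors changed no member's call except that of Eif2s1 for 105 against 94 dB under the second (adjusted p = 0.0509). With the GC and length trend removed, 6 members and 3230 genes passed for 94 against 70 dB, and 5 members and 1943 genes for 105 against 94 dB. The same trend gave Eif2s1 a log2 fold change of 0.16 at 94 dB, a turn from -0.04. Without 94 dB replicates 3 and 4 together, 4 members and 1610 genes passed for 94 against 70 dB, and 1 member (Atf5) and 217 genes for 105 against 94 dB. Eif2ak1 and Gars at 94 dB did not pass without a filter (adjusted p = 0.0513 and 0.122) or in a fit of the 8 libraries compared (0.0714 and 0.0641). For 105 against 70 dB, 2 members and 523 genes passed without a filter and 3 members and 887 genes with DESeq2. With each library left out, 6 to 12 members and 3452 to 5409 genes passed for 94 against 70 dB, 1 to 2 members and 126 to 399 genes for 105 against 70 dB, and 2 to 9 members and 1650 to 3798 genes for 105 against 94 dB. The lowest member counts came without 94 dB replicate 3 or 4 (2 and 3 members for 105 against 94 dB), then without 105 dB replicate 2 or 4 (4 each). For 105 against 70 dB, the counts of all genes below 200 came on leaving out replicate 1 (191) or 4 (149) at 70 dB, or replicate 2 (126) or 3 (187) at 105 dB. The erythroid share at 94 minus 70 dB ranged from 0.408 to 0.812 percentage points. The cause of these changes was not tested.

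Deviations from the group means were compared between libraries of the same replicate number. For 105 dB replicates 3 and 4 this number differs from the code in the sample title. Of the 4 pairs, 1 had a correlation over 0.1 in each contrast (r from -0.149 to 0.182). Each time it was replicate 2, with 0.109 for 94 against 70 dB, 0.155 for 105 against 70 dB and 0.182 for 105 against 94 dB. Replicate 2 correlated best with its own number in all 3 contrasts, and not every other library did. With the replicate number as a block, 10, 2 and 7 members passed in the 94 to 70, 105 to 70 and 105 to 94 dB contrasts. At 105 against 70 dB 479 genes passed with the block, against 316 without it. With the block and the GC and length trend removed, 5, 2 and 6 members passed, and 663 genes for 105 against 70 dB and 2021 for 105 against 94 dB.

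With 4 libraries a group, small changes can be missed. Strand use in counting was not stated, and the libraries differed in makeup.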
